A study of Mus musculus with 8 samples.

Results

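The genes described here encode the T cell receptor complex and its coreceptors. They were chosen by name: the 10 genes are Trac and Trbc2, which encode constant regions of the receptor chains, Cd3d, Cd3e and Cd3g of the CD3 complex, the coreceptor genes Cd4, Cd8a and Cd8b1, and Cd2 and Cd5, which encode surface proteins that act beside the receptor. All 10 were found among the 54532 genes counted. The counts are bulk RNA-seq of prostates from 8 NOD mice, a strain that develops autoimmune diabetes and, in the males used, inflammation of the prostate. The control group received the PBS vehicle (controls 1, 3, 65 and 69). The etanercept group received etanercept, a TNF-binding protein built from a soluble receptor, at 4 mg/kg (etanercept 17, 19, 50 and 52). Both groups were injected 2 times a week for 5 weeks and their tissue was taken at 30 weeks of age. Numbers after a group name are animal numbers. The study analysed mice with and without diabetes together, and the sample labels do not give the status of each mouse. The comparison asks how RNA levels in the prostate differ after the blocking of TNF.

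T cells recognise peptides on MHC molecules through a receptor made of an alpha and a beta chain, which has no signalling domain of its own and is brought to the membrane together with the CD3 chains. CD4 and CD8 bind the MHC class II and class I molecules and carry the kinase Lck to the receptor, so that helper and cytotoxic T cells are usually told apart by them. T cells are found between and below the epithelial cells of the prostate and gather in foci when the gland is inflamed.

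Libraries held 13760669 to 25178942 counts. Levels are given as CPM, counts scaled to a fixed library size after TMM normalization, so that 1 CPM was 27.7 reads in control 1 and between 14.2 and 18.7 reads in the other mice. The prostate markers were present in every mouse: Pbsn, which encodes probasin, was between 1094 CPM in control 69 and 9172 CPM in control 1. Markers of lobes and of neighbouring tissues differed widely between libraries. Sbp, a secretory gene of the ventral lobe, was at 1547 CPM in control 1 and 1618 CPM in etanercept 17 but at 225760 CPM in control 69. The 7 seminal vesicle markers summed to 97204 CPM in etanercept 17, 4001 CPM in control 69 and 668 CPM in etanercept 50, against at most 27.0 CPM in the other mice. Myh4, a myosin of fast skeletal muscle, had 353 CPM in control 3, 1.27 CPM in control 65 and 0 counts in the other 6 mice.

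Every one of the 10 genes had a lower mean level in the etanercept group than in the control group, and none passed the test. Log2 fold changes of etanercept over control were between -1.63, for Cd8a, and -0.44, for Trac, with a median of -0.98 over the 10 genes, beside a median of -0.01 over all 15472 genes tested. The difference was widest for the CD8 genes and Trbc2 and narrowest for Trac and Cd4. Control 1 or control 3 was the highest of the 8 mice for 9 of the 10 genes, and they were the top 2 for 5 of them, while control 1 ranked only 5 for Cd4 and Cd2 and 4 for Cd5. Such data are of whole tissue, so fewer T cells and less RNA per T cell cannot be told apart.

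By the quasi-likelihood F test of edgeR, adjusted over all tested genes, 0 of the 10 were called at an adjusted p ≤ 0.05, and the background was the same, 0% of the 15472 genes. By unadjusted p ≤ 0.05, Cd3e, Cd3g and Cd8a were lower with etanercept, 3 of 10 genes against 3.63% of all tested genes, and 0 were higher, against 2.99% of all tested genes. DESeq2 called 0 of the 10 genes, with 0.121% of its genes called, and by unadjusted p ≤ 0.05 it had 4 of the 10 lower, adding Trbc2, against 3.6% of its genes. For none of the 10 genes did every etanercept-treated mouse lie below every control mouse, a pattern that 2.53% of tested genes had.

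The number of these genes lower by unadjusted p ≤ 0.05 was 2 to 5 when single mice were left out. It was 5 without control 69 (with 5.98% of all genes tested in that fit lower) or without etanercept 50 (2.62%), and 2 without control 1 (2.82%) or without control 3 (3.03%). In sets chosen after seeing the data, it was 0 without control 3 and etanercept 17 (3.27%), and 7 without control 69, etanercept 17 and etanercept 50 (5.83%). Control 3 had the highest summed level of the 10 genes, control 69 the lowest of the controls and etanercept 50 the highest of the treated mice, so these sets do not separate other tissue in a sample from the level of the T cell genes. The part of other tissue in the differences was not tested.

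Trac (chromosome 14, 54220521 to 54224206) encodes the constant region of the alpha chain and lies downstream of all V and J segments of its locus, so that every rearranged alpha chain ends in it. It was measured at 12.2, 14.3, 10.4 and 9.90 CPM in controls 1, 3, 65 and 69, and at 10.4, 6.20, 8.31 and 9.56 CPM in etanercept 17, 19, 50 and 52. Its levels varied least among the 10 genes, with the highest mouse 2.30 times the lowest, and etanercept 17 lay within the range of the controls. The means were 11.7 ± 1.98 CPM in controls and 8.63 ± 1.83 CPM in treated mice (SD, 4 mice each), and the log2 fold change was -0.44 (standard error 0.28, edgeR adjusted p = 0.822).

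Trbc2 (chromosome 6, 41546730 to 41548352) is one of a pair of beta chain constant genes. Its levels in controls 1, 3, 65 and 69 were 43.6, 35.2, 15.8 and 9.38 CPM. In etanercept 17, 19, 50 and 52 they were 7.28, 6.74, 23.0 and 8.94 CPM. Controls 1 and 3 were above all other mice, control 69 was near the lower etanercept-treated mice, and etanercept 50 was above 2 of the controls. The means of 26.0 ± 16.1 and 11.5 ± 7.71 CPM gave a log2 fold change of -1.18 (standard error 0.55, edgeR adjusted p = 0.744). Trbc1, its near-identical partner, was at 12.7 ± 5.55 CPM in controls and 7.61 ± 4.16 CPM in treated mice, with a fitted log2 difference of -0.74 (standard error 0.47, edgeR adjusted p = 0.823). Of the 543 stretches of 150 bases in the annotated Trbc2 transcript, 110 (20.3%) are also found in Trbc1, so the split of reads between the pair is uncertain.

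Cd3d, Cd3e and Cd3g lie together on chromosome 9. The starts of Cd3d and Cd3g, which are read in opposite directions, are 1355 bases apart, and that of Cd3e is 27841 bases from the start of Cd3d. CD3 delta and gamma each pair with CD3 epsilon, and the pairs carry some of the signalling motifs of the receptor. Cd3g (44969572 to 44980431) had 32.0, 26.1, 18.1 and 10.4 CPM in controls 1, 3, 65 and 69 and 11.2, 8.93, 13.5 and 7.07 CPM in etanercept 17, 19, 50 and 52. Controls 1, 3 and 65 were above every etanercept-treated mouse, and control 69 lay among them. The means were 21.7 ± 9.40 and 10.2 ± 2.79 CPM, a 2.13-fold higher level in the control group and a log2 fold change of -1.09 (standard error 0.36, edgeR adjusted p = 0.739).

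Cd3e (44998740 to 45009627) showed the same order of groups with a narrower spread after treatment. Its levels were 10.6, 19.6, 14.2 and 6.95 CPM in controls 1, 3, 65 and 69, and 6.46, 5.72, 7.23 and 5.34 CPM in etanercept 17, 19, 50 and 52. The 3 higher controls were above all etanercept-treated mice, and control 69 was below etanercept 50 only. The means of 12.8 ± 5.40 and 6.19 ± 0.840 CPM gave a log2 fold change of -1.05 (standard error 0.35, edgeR adjusted p = 0.739). An antisense gene, Gm48719, shares 135 bases of exon with Cd3e, and reads there cannot be assigned to a strand if the counting ignored it.

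Cd3d (44981786 to 44987339) was at 11.5, 14.5, 8.17 and 2.49 CPM in controls 1, 3, 65 and 69. In etanercept 17, 19, 50 and 52 it was at 6.41, 3.53, 6.16 and 3.40 CPM. Control 69 had the lowest level of all 8 mice, while the other controls were above every etanercept-treated mouse. The log2 fold change was -0.91 (standard error 0.52, edgeR adjusted p = 0.802), with means of 9.17 ± 5.16 and 4.87 ± 1.63 CPM, and without control 3 it was -0.60.

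Cd8a (chromosome 6, 71373427 to 71379173) encodes the alpha chain of CD8 and had the widest difference of the 10 genes. It was at 14.4, 10.9, 8.45 and 3.53 CPM in controls 1, 3, 65 and 69, and at 0.874, 3.21, 5.20 and 2.70 CPM in etanercept 17, 19, 50 and 52. Again controls 1, 3 and 65 were above every etanercept-treated mouse and control 69 was below etanercept 50. The means were 9.30 ± 4.55 and 2.997 ± 1.78 CPM, a 3.10-fold higher level in the control group and a log2 fold change of -1.63 (standard error 0.59, edgeR adjusted p = 0.739). The low value of etanercept 17 came from 15 reads, with an exact Poisson interval of 8.40 to 24.7 reads at a confidence of 95%, and without this mouse the log2 fold change was -1.33.

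Cd8b1 (chromosome 6, 71322788 to 71337494), the gene of the CD8 beta chain found on conventional cytotoxic T cells, starts 50639 bases from Cd8a. It was measured at 3.44, 2.87, 4.51 and 1.27 CPM in controls 1, 3, 65 and 69 and at 0.874, 0.642, 3.29 and 0.485 CPM in etanercept 17, 19, 50 and 52. Etanercept 50 lay among the controls, and the other 3 etanercept-treated mice were below all of them. The value of etanercept 52 rests on 7 reads, with an exact Poisson interval of 2.81 to 14.4 reads. The means of 3.02 ± 1.35 and 1.32 ± 1.32 CPM gave a log2 fold change of -1.19 (standard error 0.79, edgeR adjusted p = 0.836), which was -2.17 without etanercept 50.

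Cd4 (chromosome 6, 124864692 to 124888221) encodes the coreceptor of helper and regulatory T cells and is also transcribed in some myeloid cells. Its levels were 15.7, 40.8, 20.2 and 14.8 CPM in controls 1, 3, 65 and 69, and 16.0, 12.6, 19.6 and 15.3 CPM in etanercept 17, 19, 50 and 52. Only control 3 stood apart, and the other 7 mice were between 12.6 and 20.2 CPM with the groups mixed. The means of 22.9 ± 12.2 and 15.9 ± 2.85 CPM gave a log2 fold change of -0.53 (standard error 0.34, edgeR adjusted p = 0.828). Without control 3 it was -0.09.

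Per exon length, the ratio of Cd4 to Cd8a was 0.988, 3.39, 2.16 and 3.77 in controls 1, 3, 65 and 69. In etanercept 17, 19, 50 and 52 it was 16.5, 3.55, 3.39 and 5.11. The groups overlapped, with control 1 lowest and etanercept 17 highest. The mean log2 ratio was 1.30 higher in the etanercept group, and 0.79 higher without etanercept 17, which had the 15 Cd8a reads. This ratio was taken as a description and was not tested. The ratio of Cd8a to Cd8b1 per exon length was between 0.765 and 1.704 in the controls and between 0.408 and 2.27 in the etanercept-treated mice.

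Cd2 (chromosome 3, 101275899 to 101287939) encodes an adhesion receptor of T cells and NK cells that binds CD48 on the partner cell in mice. It was at 9.15, 20.1, 9.72 and 10.2 CPM in controls 1, 3, 65 and 69. The etanercept-treated mice 17, 19, 50 and 52 had 11.9, 4.17, 7.59 and 6.72 CPM. Etanercept 17 was second to control 3, and the other etanercept-treated mice were below all controls. The log2 fold change was -0.69 (standard error 0.40, edgeR adjusted p = 0.802), from means of 12.3 ± 5.20 and 7.61 ± 3.23 CPM, and -0.36 without control 3.

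Cd5 (chromosome 19, 10717116 to 10739002) encodes a scavenger receptor family protein that dampens signals from the T cell receptor and is also carried by B-1 cells. It had 2.603, 7.93, 3.03 and 2.37 CPM in controls 1, 3, 65 and 69 and 0.582, 1.87, 4.30 and 1.94 CPM in etanercept 17, 19, 50 and 52. Control 3 was the highest mouse and etanercept 50 came next, above the other 3 controls. The means of 3.99 ± 2.65 and 2.17 ± 1.55 CPM gave a log2 fold change of -0.87 (standard error 0.70, edgeR adjusted p = 0.870). This value was -0.29 without control 3, -0.55 without etanercept 17, -1.44 without etanercept 50, and 0.02 without control 3 and etanercept 17 together.

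**Figure D1:**
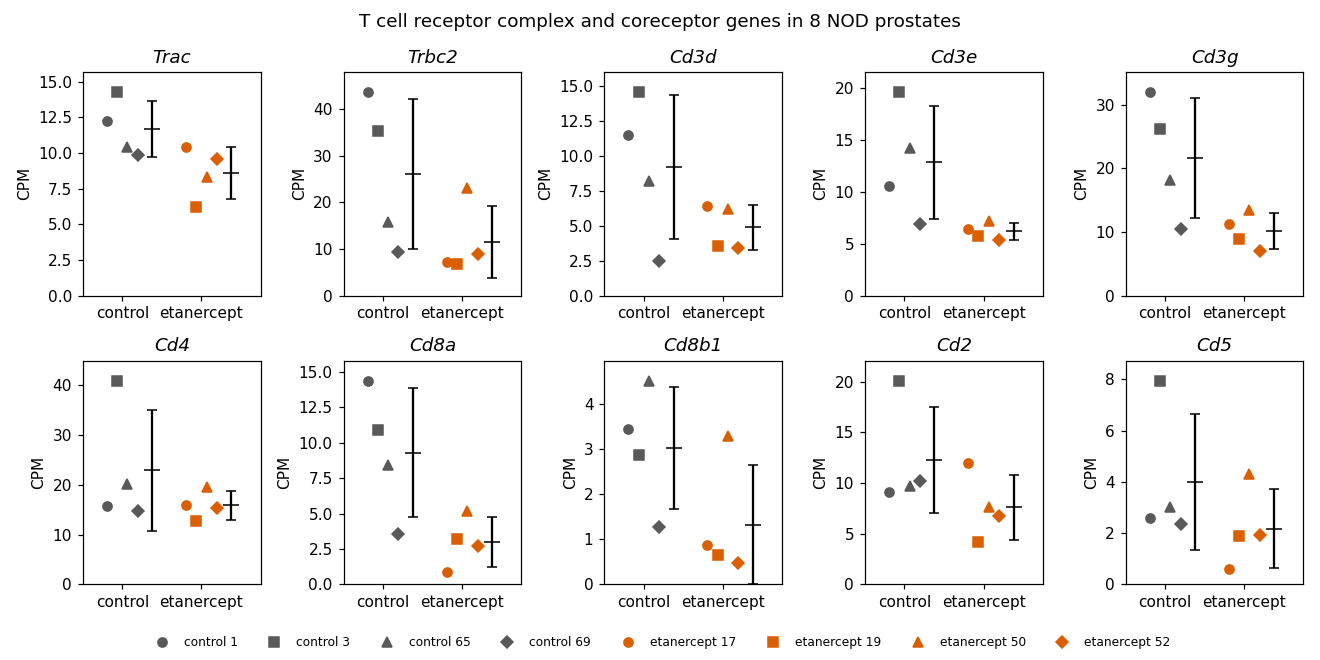
Level of each of the 10 genes in CPM (vertical axes, linear from 0) in the 4 control and 4 etanercept-treated mice, with 1 symbol per mouse and the mean ± SD beside each group. Controls 1 and 3 hold most of the high values, and the groups overlap for each gene, as for Cd8a, where control 69 (3.53 CPM) is below etanercept 50 (5.20 CPM).

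**Figure D2:**
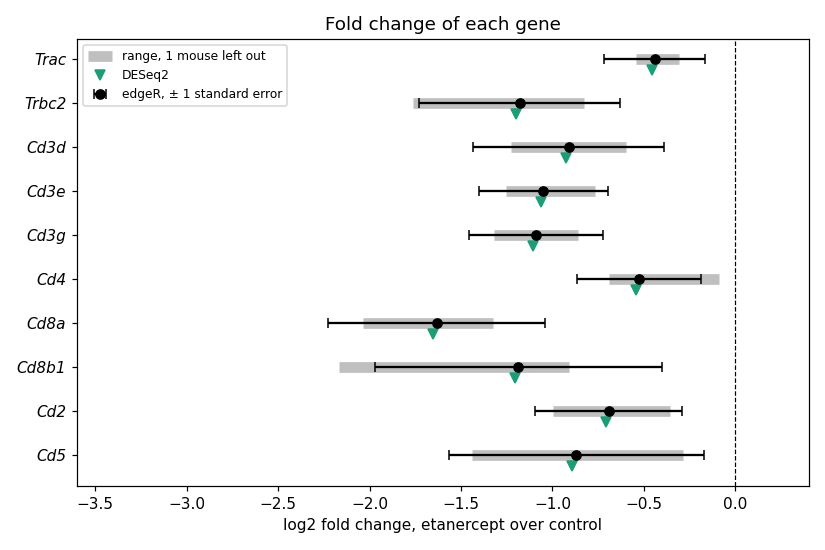
Log2 fold change of etanercept over control (horizontal axis) for each gene, as fitted by edgeR with its standard error, as fitted by DESeq2, and as the range of edgeR values when each mouse is left out in turn. The edgeR values run from -1.63 for Cd8a to -0.44 for Trac, and the range for Cd4 comes closest to 0, at -0.09.

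Levels were set side by side per kilobase of exon (FPKM, from CPM and annotated exon length). Over the 8 mice the order of means was Trbc2 at 27.1 ± 20.2, Trac at 10.9 ± 2.58, Cd2 at 5.72 ± 2.72, Cd3g at 4.87 ± 2.72, Cd4 at 4.80 ± 2.24, Cd3d at 3.87 ± 2.33, Cd3e at 2.33 ± 1.24, Cd8a at 1.69 ± 1.28, Cd8b1 at 1.46 ± 1.03 and Cd5 at 0.625 ± 0.452 FPKM (SD, n = 8). Of neighbours in this order, Trac and Cd2 alone differed by more than the larger of their SDs, and Trac was above Cd2 in 8 of 8 mice. Trbc2 was above Trac in 7 of 8 mice, with etanercept 17 as the exception. Cd3g and Cd4 had nearly the same mean level and Cd3g was the higher in 2 of 8 mice. Within the treated mice the order of means turned for Cd4 and Cd3g, at 3.93 ± 0.708 and 3.11 ± 0.853 FPKM. It also turned for Cd8b1 and Cd8a, at 0.892 ± 0.890 and 0.824 ± 0.489 FPKM. Cd4 was above Cd3g in controls 3 and 69 as well. Cd8b1 was above Cd8a in etanercept 17, etanercept 50 and control 65, and below it in the other mice. Among the CD3 chains the ratio of Cd3g to Cd3e per length was 2.23 ± 1.04 in controls and 2.02 ± 0.292 in treated mice, and that of Cd3g to Cd3d was 1.52 ± 0.578 and 1.19 ± 0.180.

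Summed over the 10 genes, the level was 155 CPM in control 1, 192 in control 3, 113 in control 65 and 71.3 in control 69. In etanercept 17, 19, 50 and 52 the sum was 72.0, 53.6, 98.1 and 61.5 CPM. Control 69 was thus at the level of the etanercept-treated mice, and etanercept 50 was nearest to the other controls. The group means were 133 ± 52.4 and 71.3 ± 19.4 CPM, with a mean log2 difference of -0.84 that was taken as a description. As a share of all counts, the 10 genes held from 0.00509% in etanercept 19 (Wilson 95% interval 0.00479% to 0.00542%) to 0.0205% in control 3 (0.0197% to 0.0212%). Without Trbc2 the sums ran from 46.9 CPM in etanercept 19 to 157 CPM in control 3.

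Other parts of the receptor locus were read at low depth. Of 108 Trav segments, 27 had any count and 0 passed the filter, and of 22 Trbv segments, 16 had a count and 0 passed. The Trbv segments together had 80, 120, 95 and 20 counts in controls 1, 3, 65 and 69, and 47, 100, 59 and 50 counts in etanercept 17, 19, 50 and 52. Trbv13-2 had the most, 81 counts over all mice. The gamma-delta receptor was represented by Trdc, the delta chain constant gene, at 1.36 ± 0.541 CPM in controls and 0.274 ± 0.404 CPM in treated mice, where etanercept 17 and 52 had 0 counts, so that their level was below about 0.175 and 0.208 CPM, the level of 3 counts. The fitted log2 fold change of Trdc was -2.26 (standard error 1.33, edgeR adjusted p = 0.811), and the log2 fold change of Trdc without etanercept 19 was -3.95. Trgc1, Trgc2, Trgc3 and Trgc4 were not matched by symbol and are not analysed here. Of the other T cell receptor constant genes tested, Trbc1 and Trdc, both had a negative fold change, with a median of -1.501; 0 passed unadjusted p ≤ 0.05, or 1 without etanercept 17 or without etanercept 19.

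Lists of other genes are given with their counts by unadjusted p ≤ 0.05. Counts of lower genes are to be read beside the share of all tested genes lower in the same fit. The share higher was taken with all mice in edgeR alone, so counts of higher genes in other fits have no background share. With all mice 3.63% of genes were lower and 2.99% higher in edgeR, and 3.6% were lower in DESeq2. Without controls 1, 3, 65 and 69 in turn, 2.82%, 3.03%, 2.49% and 5.98% of genes were lower. Without etanercept 17, 19, 50 and 52 in turn, it was 3.95%, 2.66%, 2.62% and 2.69%. It was 5.41% with library size alone, 4.04% with RLE factors, 4.12% with upper-quartile factors, 3.57% with the robust fit, 2.81% with the term for low or high animal numbers, 3.01% with no filter and 4.77% with at least 10 counts in every mouse. Without control 3 and etanercept 17 it was 3.27%.

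Of 30 genes for signalling from the receptor, 28 were tested, 0 were called, and 4 were lower and 0 higher by unadjusted p ≤ 0.05. The number lower was 2 without control 1, control 3, etanercept 50 or etanercept 52 and with the term for low or high animal numbers. It was 6 without control 69, and without control 3 there was 1 higher. Their median log2 fold change was -0.45, with 23 negative values, beside -0.01 over all tested genes. Lck, the kinase that starts the signal, was at 20.8 ± 8.70 CPM in controls and 9.83 ± 1.63 CPM in treated mice, a log2 fold change of -1.08 (standard error 0.31, edgeR adjusted p = 0.739). Each etanercept-treated mouse was below each control for Lck, at most 11.6 CPM against at least 14.3 CPM. Cd6, the gene of a receptor akin to CD5 that starts 91056 bases from Cd5, was at 7.30 ± 1.81 and 2.26 ± 1.40 CPM with a fitted log2 difference of -1.69 (standard error 0.56, edgeR adjusted p = 0.739). The groups did not overlap for Cd6 either. Lck and Cd6 were the 2 of 28 tested genes of the list with every treated mouse below every control, against 2.53% of all tested genes. Among the lists below, 2 of 11 tested macrophage markers and 2 of 6 adipocyte markers had this pattern as well. So did 1 of 7 dendritic cell markers, 1 of 10 cytotoxic effector genes and 1 of 20 subset factors and receptors. Csk, a kinase that restrains Lck and is found in many cell types, had a smaller difference, with a fitted log2 difference of -0.35 (standard error 0.16, edgeR adjusted p = 0.743). Thy1, the most abundant gene of the list and one that fibroblasts and nerve cells also transcribe, was at 100.5 ± 49.7 CPM in controls and 101 ± 40.5 CPM in treated mice.

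Among the ligands and costimulatory partners of T cells, 11 of 12 genes were tested, 0 were called, and 1 was lower and 0 higher by unadjusted p ≤ 0.05, with a median log2 fold change of -0.30. Lower genes numbered 5 without control 69, 3 without etanercept 17, with library size alone or with the robust fit, 2 with RLE factors or other filters, and 4 in DESeq2. In the edgeR fit of all mice that gene was H2-Aa, the alpha chain of an MHC class II molecule, with 176 ± 85.4 CPM in the control group, 77.3 ± 13.2 CPM in treated mice and a log2 fold change of -1.19 (standard error 0.36, edgeR adjusted p = 0.739). H2-Eb1, a class II beta chain, had -0.80 (standard error 0.36, edgeR adjusted p = 0.743), and -0.49 without control 3. H2-D1, an MHC class I heavy chain, had a fitted log2 difference of -0.47 (standard error 0.22, edgeR adjusted p = 0.746), and class I genes share reads with near-identical copies. B2m, the light chain of class I molecules, was the most abundant gene at 3011 ± 1228 and 2726 ± 1060 CPM.

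Of 8 inhibitory receptors of T cells, 8 were tested and 0 were lower or higher by unadjusted p ≤ 0.05, with a median log2 fold change of -0.92, and 1 was lower without control 69. Lag3, which binds MHC class II, was the most abundant at 17.1 ± 10.4 CPM in controls and 7.58 ± 4.32 CPM in treated mice, a log2 fold change of -1.17 (standard error 0.64, edgeR adjusted p = 0.787). Tigit, which competes for ligands with an activating receptor, had -0.83 (standard error 0.60, edgeR adjusted p = 0.849), and -0.36 without control 3. Pdcd1, the gene of PD-1, had -0.9997 (standard error 0.77, edgeR adjusted p = 0.868), which was -0.61 without control 3 and -0.66 without etanercept 19. Of the 8 inhibitory receptors, 6 had a negative log2 fold change and 2 a positive one. The positive ones were Havcr2 at 0.08 (standard error 0.71) and Cd160 at 0.43 (standard error 1.09). Btla was near 0, at -0.11 (standard error 0.61). Of 20 subset factors and receptors, 20 were tested, 1 was lower and 0 higher at that threshold, and the median was -0.63. Lower genes numbered 0 without control 65, etanercept 17, etanercept 19 or etanercept 50, and 2 without control 69 or etanercept 52 and in DESeq2, and 1 was higher without etanercept 17. Cxcr3, a chemokine receptor of activated T cells, did not reach it in edgeR with all mice, with a log2 value of -1.13 (standard error 0.54, edgeR adjusted p = 0.754). Gata3, the most abundant gene of this list at 272 ± 163 and 204 ± 111 CPM, is also a factor of luminal epithelium.

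The cytotoxic effector genes had the lowest median of the T cell lists, -1.60 over the 10 of 11 genes tested. By unadjusted p ≤ 0.05, 2 were lower and 0 higher, and 0 were called. The number lower was 1 without control 1 or etanercept 52, and 4 without control 69, in DESeq2, with no filter and with library size or upper-quartile scaling. Ccl5, a chemokine stored by cytotoxic T cells and NK cells, was at 138, 56.8, 31.8 and 16.4 CPM in controls 1, 3, 65 and 69, and at 18.2, 16.7, 23.9 and 10.3 CPM in etanercept 17, 19, 50 and 52. Control 1 was highest for Ccl5, as it was for Cd8a, Cd3g and Trbc2. The log2 fold change was -1.81 (standard error 0.58, edgeR adjusted p = 0.739) and -1.04 without control 1. Nkg7, a granule membrane protein of the same cells, had -1.38 (standard error 0.51, edgeR adjusted p = 0.739). Of the 10 tested, 9 were negative and 1 positive. The positive gene was Serpinb9, at 25.7 ± 4.74 CPM in controls and 30.8 ± 4.80 CPM in treated mice, with 0.26 (standard error 0.20). Gzmb had -0.51 (standard error 0.51, edgeR adjusted p = 0.920). Some genes of the list had 0 counts in some mice, so the median rests partly on uncertain values.

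NK cells share Cd2 and the cytotoxic genes with T cells. Of 7 NK cell markers, 4 were tested and 0 passed unadjusted p ≤ 0.05, with a median log2 fold change of -0.72; 1 was lower without control 69, and 1 was higher in DESeq2 and with no filter. Klrb1c, the gene of NK1.1, had 0 counts in all controls and in etanercept 52, and Ncr1 was at most 1.60 CPM. Il2rb was the most abundant, is also transcribed in T cells, and had -0.76 (standard error 0.38, edgeR adjusted p = 0.769), or -0.32 without control 3. The summed level of the NK cell markers was 31.7, 41.0, 21.9 and 12.4 CPM in controls 1, 3, 65 and 69 and 14.7, 18.4, 16.0 and 17.05 CPM in etanercept 17, 19, 50 and 52.

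Markers of other leukocytes also had lower mean sums after etanercept, and their part in the differences was not tested. For the pan-leukocyte and B cell markers this rested on control 3. Without that mouse, the control means were slightly below the treated means of 412 and 117 CPM. The 9 pan-leukocyte markers summed to 396, 954, 460 and 342 CPM in controls 1, 3, 65 and 69 and to 594, 314, 391 and 349 CPM in etanercept 17, 19, 50 and 52. All 9 were tested, 1 was lower and 0 higher by unadjusted p ≤ 0.05, and the median log2 fold change was -0.43. The number lower was 0 without control 3, control 65, etanercept 19, etanercept 50 or etanercept 52, 2 without etanercept 17 and 3 without control 69, and 1 was higher without control 3. In the fit of all mice the gene was Was, an actin regulator of blood cells, with -0.97 (standard error 0.43, edgeR adjusted p = 0.743), while the most abundant, Cd52, was at 97.3 ± 31.4 and 95.9 ± 44.8 CPM. Rac2 had -0.65 (standard error 0.37, edgeR adjusted p = 0.797) and -0.30 without control 3. Set against this sum, the 10 T cell genes came to 39.2%, 20.1%, 24.5% and 20.9% in controls 1, 3, 65 and 69, and to 12.1%, 17.1%, 25.1% and 17.6% in etanercept 17, 19, 50 and 52. On that scale control 3 was no longer high, control 1 was the highest mouse and etanercept 50 the next.

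The 9 B cell markers summed to 116, 418, 132 and 95.4 CPM in controls 1, 3, 65 and 69, and to 199, 70.9, 149 and 49.1 CPM in etanercept 17, 19, 50 and 52. All 9 were tested, 0 passed unadjusted p ≤ 0.05, and the median log2 fold change was -0.59; 1 was lower without control 69 or without etanercept 17. Cd79a, the most abundant, had -0.99 (standard error 0.57, edgeR adjusted p = 0.802) and -0.23 without control 3. Pax5 had -0.93 (standard error 0.49, edgeR adjusted p = 0.782) and -0.51 without control 3. The ratio of the T cell sum to the B cell sum was 0.850 ± 0.367 in controls and 0.757 ± 0.371 in treated mice, a difference smaller than either SD. Of 7 plasma cell markers, 6 were tested and 2 were lower by unadjusted p ≤ 0.05 with a median of -0.61. Only 1 was lower without control 3, etanercept 19, etanercept 50 or etanercept 52, and 4 were lower without control 1. Their sums were 1229, 4516, 2768 and 853 CPM in controls 1, 3, 65 and 69 and 1373, 665, 949 and 1133 CPM in etanercept 17, 19, 50 and 52, and Jchain, the most abundant, had a fitted log2 difference of -1.91 (standard error 0.72, edgeR adjusted p = 0.739) and -1.18 without control 3. Mzb1 had -1.88 (standard error 0.62, edgeR adjusted p = 0.739), also -1.18 without control 3.

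All 11 macrophage markers were tested and had negative fold changes, 4 of them by unadjusted p ≤ 0.05, with a median of -0.79. The number by that threshold was 1 without control 3 or etanercept 50, and 0 without control 3 and etanercept 17 together. It was 6 without control 1 or control 69, in DESeq2, with library size alone and with at least 10 counts in every mouse. Their sums were 479, 1546, 783 and 549 CPM in controls 1, 3, 65 and 69 and 519, 525, 423 and 571 CPM in etanercept 17, 19, 50 and 52, so that control 1, high for the T cell genes, was low here. Lyz2 was the most abundant, and without control 3 it and some others of the list had a higher mean in the treated mice. C1qa had a fitted log2 difference of -1.18 (standard error 0.37, edgeR adjusted p = 0.739) and -0.77 without control 3, and Fcgr1 had -1.47 (standard error 0.54, edgeR adjusted p = 0.739). Of 8 dendritic cell markers, 7 were tested, 0 passed unadjusted p ≤ 0.05 and the median was -0.21; 1 was lower without etanercept 17. Of 11 genes of lymphoid stroma and T cell chemokines, 7 were tested and 2 were lower at that threshold, or 1 without control 1, control 3, control 65, etanercept 19 or etanercept 50, with a median of -0.54. These were Cxcl13, a B cell chemokine, at -0.97 (standard error 0.34, edgeR adjusted p = 0.739; -0.52 without control 3), and Ltb, at -0.79 (standard error 0.35, edgeR adjusted p = 0.743). Ccl19 had 0 counts in 5 of 8 mice and Ccl21a in all 8; both recruit T cells to lymphoid tissue.

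Markers of fat, muscle, epithelium and seminal vesicle were summed in the same way, and edgeR called 0 of them. The 7 adipocyte markers summed to 345, 710, 51.9 and 123 CPM in controls 1, 3, 65 and 69 and to 20.2, 39.5, 31.9 and 32.9 CPM in etanercept 17, 19, 50 and 52. Controls 1 and 3, high for the T cell genes, were high for these as well. Of the 6 tested, 5 were lower by unadjusted p ≤ 0.05 and the median was -3.39, with Cfd, the most abundant, at -4.48 (standard error 1.12, edgeR adjusted p = 0.739) and Fabp4 at -2.43 (standard error 0.67, edgeR adjusted p = 0.739, DESeq2 adjusted p = 0.0357). Retn, with the smallest p of the list, was at -7.07 (standard error 1.31, edgeR adjusted p = 0.739, DESeq2 adjusted p = 3.09e-05) and had 0 counts in etanercept 17, 19 and 52. With at least 10 counts asked of every mouse, Fabp4 alone of the list could be tested, and it was lower. The number lower was 3 without control 3 and etanercept 17. The 10 smooth muscle and stromal markers had a median of 0.58, with 3 higher at that threshold, Cnn1 at 1.35 (standard error 0.45), Tagln at 0.75 (standard error 0.25) and Acta2 at 0.77 (standard error 0.32), each with an edgeR adjusted p = 0.739. Of these 10 markers, 7 had a positive log2 fold change and 3 a negative one, the negative values between -0.21 and -0.01. Of the 15 prostate epithelial markers, all were tested, 1 was lower and the median was -0.14. The number lower was 0 without control 1, control 65, etanercept 19 or etanercept 50, 2 without control 3, 4 without control 69 and 2 in DESeq2. Of the 7 seminal vesicle markers, 4 were tested and positive with a median of 4.18, and Svs2 was the most abundant. With all mice 0 passed, or 4 without control 69. Svs2 was at 69757 CPM in etanercept 17 and 2374 CPM in control 69, against at most 403 CPM in the other mice. Without etanercept 17, the mean CPM of each of the 4 was lower in the treated mice. Of the 7 skeletal muscle markers, 5 were tested with a median of -1.85 and 1, Tnnt3, was lower, with 154 CPM in control 3, against no more than 2.51 CPM elsewhere. Without control 3, the mean CPM of each of the 5 was higher in the treated mice. The number lower was 0 without control 3 or any 1 etanercept-treated mouse, and 2 without control 1, control 65 or control 69. Without control 3 there was 1 higher. DESeq2 also had 0 lower, but of these 5 genes it gave a p-value to Acta1 alone. Its 0 is therefore not a lost call of Tnnt3. Acta1, the most abundant, was at 427 ± 393 CPM in controls and 916 ± 291 CPM in treated mice. The part of each of these tissues in the T cell gene differences was not tested.

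**Figure D3:**
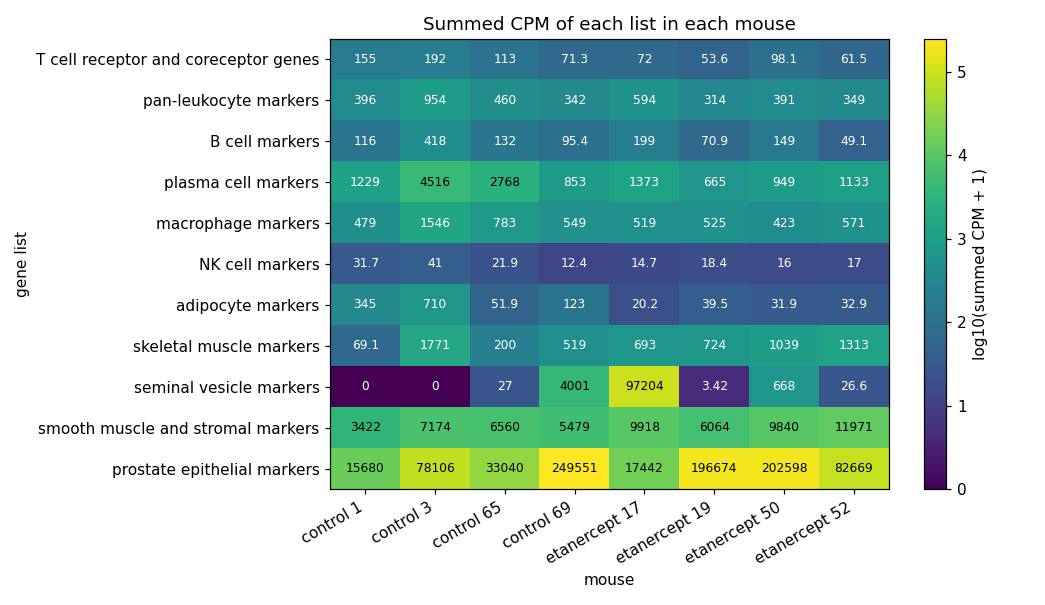
Summed CPM of the T cell receptor and coreceptor genes and of marker lists (rows) in each mouse (columns), printed in each field and coloured by log10(summed CPM + 1). The T cell sum is highest in control 3 (192 CPM) and control 1 (155 CPM), which also have the highest adipocyte sums (710 and 345 CPM), and the seminal vesicle sum is highest in etanercept 17 (97204 CPM).

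The genes whose levels across the 8 mice were most like those of the 10 T cell genes were ranked by Pearson's r of log2(CPM + 1) with the mean log2(CPM + 1) of the 10, over 15462 other tested genes. The first 10 were Pttg1, Cks2, Pmf1, Lcp2, Gpr55, Tnfaip8l2, Irf5, Ltc4s, Elk4 and Hip1, with r between 0.946 and 0.986. Without controls 1 and 3, the mice with the highest mean of the 10 genes, r over the other 6 mice was between 0.842 and 0.986. Lcp2 encodes SLP-76, an adaptor of T cell receptor signals, and Pttg1, Cks2 and Pmf1 encode proteins of the cell division cycle. Pttg1 was at 4.52, 7.87, 4.51 and 1.79 CPM in controls 1, 3, 65 and 69 and at 1.22, 1.39, 3.35 and 1.52 CPM in etanercept 17, 19, 50 and 52. As for Cd3g and Trbc2, control 69 was low and etanercept 50 high within its group. With so few mice, r describes these samples and was not tested.

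Promoter sequences were searched for motifs as a description. Why control 1 or control 3 was highest for most of the 10 genes was not tested. A sequence of 300 bases, from 250 before to 50 after the start in RefSeq on GRCm38.p6, was at hand for 5 of the 10 genes: Cd3d, Cd3e, Cd3g, Cd8a and Cd5. Each was searched on both strands for short motifs of factors active in T cells, and a match is not a bound site. An Ets core, written AGGAAG, was in 3 of the 5 promoters and in 35.4% of all 32851 promoters searched in the same way. An E-box, written CAGCTG, was in 2 of the 5 promoters and in 16.3% of all promoters. A site for GATA factors, written AGATAA, was in 1 of the 5 promoters and in 11.2% of all promoters. The Runx site TGTGGT, which 16.8% of all promoters hold, was in 0 of the 5 promoters. The same was true of the box motif TATAAA, which 13.6% of all promoters hold. The promoters of the 3 CD3 genes and Cd8a, the members with the widest fold changes among those at hand, are printed 5′ to 3′ on the gene's own strand, with matches in capitals. That of Cd3d is at chr9:44981536-44981835 on the plus strand, that of Cd3g at chr9:44980382-44980681 and that of Cd3e at chr9:45009562-45009861, both on the minus strand, and that of Cd8a at chr6:71373177-71373476 on the plus strand.
Cd3d: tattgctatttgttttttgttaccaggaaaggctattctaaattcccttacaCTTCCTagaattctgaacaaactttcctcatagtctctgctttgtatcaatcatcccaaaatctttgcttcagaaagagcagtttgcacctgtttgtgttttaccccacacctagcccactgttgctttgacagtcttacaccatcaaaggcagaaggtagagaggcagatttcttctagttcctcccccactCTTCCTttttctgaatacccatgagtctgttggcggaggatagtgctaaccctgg
Cd3g: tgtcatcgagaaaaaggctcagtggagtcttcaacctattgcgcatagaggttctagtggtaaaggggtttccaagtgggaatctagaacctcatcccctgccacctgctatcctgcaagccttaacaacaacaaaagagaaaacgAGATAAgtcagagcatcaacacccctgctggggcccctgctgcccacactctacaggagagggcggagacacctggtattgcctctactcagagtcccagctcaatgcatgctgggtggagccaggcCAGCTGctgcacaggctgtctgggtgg
Cd3e: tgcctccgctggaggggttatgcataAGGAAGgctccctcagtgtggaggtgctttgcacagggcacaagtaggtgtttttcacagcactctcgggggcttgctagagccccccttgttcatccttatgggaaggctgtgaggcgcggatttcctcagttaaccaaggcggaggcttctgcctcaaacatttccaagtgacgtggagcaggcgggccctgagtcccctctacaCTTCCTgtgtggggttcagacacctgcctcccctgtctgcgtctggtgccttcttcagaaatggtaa
Cd8a: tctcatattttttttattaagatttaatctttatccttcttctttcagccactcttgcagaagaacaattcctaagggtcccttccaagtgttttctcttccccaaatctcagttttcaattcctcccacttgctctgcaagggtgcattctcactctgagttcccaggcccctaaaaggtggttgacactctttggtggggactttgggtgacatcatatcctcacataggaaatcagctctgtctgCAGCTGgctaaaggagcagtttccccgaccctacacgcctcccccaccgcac

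The capitals in Cd3d and Cd3e are Ets letters, 2 in each, counted from the start at -198 and -5 in Cd3d, where each is on the opposite strand, and in Cd3e at -224 on the same strand and at -17 on the opposite strand. In Cd3g they are a GATA match at -104 and an E-box match at 24, and in Cd8a an E-box match at -2. The divergent pair Cd3d and Cd3g held different letters.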

How the data were processed

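Poly(A)-selected RNA of 8 NOD prostates, 1 library per mouse, was sequenced as read pairs. Per the submitters' processing notes, the authors used fastp, STAR 2.6.1d, featureCounts 1.5.0-p3 and DESeq2 1.26.0 with mm10, and deposited whole-number counts per Ensembl gene without normalization. Counting settings and the annotation release are not given in the sources used here. Columns were matched to mice by group initial and animal number. The replicates are separate mice, and the groups share no animal number.

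Genes were named from GENCODE M21 by Ensembl identifier; 37 of 54532 identifiers were not in it. Where a symbol also stands on an unplaced scaffold, the copy on a chromosome was used. The fit used edgeR 4.0.16 in R 4.3.3 (TMM, filterByExpr with a minimum count of 10, glmQLFit, glmQLFTest, Benjamini-Hochberg adjustment over 15472 genes), and it was tested on simulated data, where small fold changes were mostly missed at the spread of these mice. Alternatives were DESeq2 1.42.0, scaling by upper quartiles, by RLE, by library size only or by TMM after dropping the 50 most counted genes, other count filters, a robust fit, a 2-level term for animal numbers below 20 (1, 3, 17, 19) or above 49 (50, 52, 65, 69), fewer gene types and leaving out each mouse. Standard errors come from the fold change and the F statistic. Intervals and floors (3 counts) cover counting error only.

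The members and 18 gene lists were chosen with earlier results of these data known. Of each list, at most the 4 genes with the highest mean CPM and the 2 with the smallest p could be named, besides genes with no counts in most mice; lists of up to 9 genes could be named in full, and the 10 genes most correlated with the members were named. Which of these genes have a fold change printed was chosen after seeing the data. No set test was run.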

Additional observations from a re-analysis of the deposited data

Results flagged for a closer look

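Within each group of 4 mice, the gap between an extreme mouse and its nearest neighbour was compared with the range of the group, and a gap above 0.829 of the range was taken as far apart. Over 26 such groups (the 10 genes, their sum, the Cd4 to Cd8a ratio and the total count), 5 had a mouse far from the others, and chance gives about 1 in 20 for a single group. The groups share mice and genes and are not independent, so the 2 figures cannot be compared directly. In the control group, control 3 was far above the rest for Cd2, at 20.1 CPM, and for Cd5, at 7.93 CPM. In the etanercept group, etanercept 50 was far above the rest for Trbc2, at 23.0 CPM, and for Cd8b1, at 3.29 CPM. The Cd4 to Cd8a ratio per exon length was far above the rest in etanercept 17, at 16.5.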

How the results depend on the processing

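The 10 genes gave 189 log2 fold changes under the alternatives, of which 188 were negative, and 0 of the 10 genes were called in any of them, with the smallest adjusted p at 0.274 (without control 69). The exception was Cd5, at 0.0219 without control 3 and etanercept 17, and the cause was not tested. The number of genes called in all was 0 in every edgeR fit and 21 in DESeq2. The number of the 10 genes lower at an unadjusted p of at most 0.05 was between 2 and 5 when each mouse was left out, 0 without control 3 and etanercept 17, and 7 without control 69, etanercept 17 and etanercept 50; these smaller sets of mice were chosen after seeing the data. It was 3 or 4 under the other tests, scalings and filters. The difference in log2 summed level, -0.84, was between -0.92 and -0.84 under other scalings, between -1.11 and -0.63 with 1 mouse left out, and -1.38 without control 69, etanercept 17 and etanercept 50. The difference in log2 Cd4 to Cd8a ratio, 1.30, was between 0.79 and 1.55 with 1 mouse left out. Cd8b1 did not reach 10 counts in every mouse and has no value under that filter. Library size alone moved the median of all genes to -0.09. Depth limits Cd8b1, Cd5 and Cd8a most, with as few as 7, 10 and 15 reads in a mouse. No paired analysis was possible because the groups share no animal numbers; a term for low or high animal numbers left 3 of the 10 genes lower by unadjusted p.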

Other observations

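The T cell receptor alpha V segments, which were too low to be tested, had 51, 64, 30 and 32 counts in controls 1, 3, 65 and 69 and 0, 49, 18 and 1 counts in etanercept 17, 19, 50 and 52. Etanercept 17 thus had 0 Trav counts beside 179 Trac counts and 47 Trbv counts, and etanercept 19 had 49 Trav counts beside 116 Trac counts. The J segments had 19 counts (Traj) and 29 counts (Trbj) over all mice. Trav16n had the most counts of its kind, 37, spread over 4 mice.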
